A study of Mus musculus with 2 samples.

Results

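The genes described here encode matricellular proteins, small proteoglycans and their partners in the extracellular matrix. They are Dpt, Dcn, Lum, Bgn, Fbln1, Fbln2, Postn, Sparc, Tnc and Thbs1, 10 of the 49492 genes in the deposited table, and all 10 were found there by symbol. They were chosen by name from earlier results on the same libraries, in which the difference between TNF-α and control was already known. Their differences are therefore given as a description, with no test.

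RNA-seq was performed on primary wild-type mammary epithelial cells, sorted by FACS as basal cells from the glands of adult female mice and grown for 10 days in 3D matrix gel. In the TNF-α group, recombinant mouse TNF-α was added at 10 ng/mL, and the control group received none. Both groups shared the basic medium, which held EGF and ITS. There was 1 library per group, so no difference has a replicate check, and TNF-α cannot be told apart from whatever else set the cultures apart. The labels do not say how many mice were pooled. Summed over genes, the control library held 44462275 counts and the TNF-α library 53487087.

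Matricellular proteins are secreted proteins that regulate how cells attach to and read the matrix, rather than serving mainly as its scaffold. Thrombospondin 1, tenascin C, SPARC and periostin are the classical examples, and they are known for their induction during tissue remodelling and wound repair. Small leucine-rich proteoglycans such as decorin, lumican and biglycan have a horseshoe-shaped core that binds collagen and limits fibril diameter, and dermatopontin, encoded by Dpt, binds decorin and collagen fibrils. In the mammary gland, decorin and lumican are mostly products of stromal fibroblasts, whereas basal cells lie on the basement membrane and secrete part of it.

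Only the abundances of Dpt, Fbln1 and Dcn lay more than 2-fold apart between the libraries, all 3 with the higher value under TNF-α. Dpt was 23.9-fold higher, Fbln1 2.87-fold and Dcn 2.63-fold. The abundant genes of the group, namely Postn, Thbs1, Sparc, Tnc, Bgn and Fbln2, had log2 ratios between -0.30 and 0.48. Lum, the neighbour of Dcn on chromosome 10, had a log2 ratio of 0.13 and too few counts to place it more closely. Here the log2 ratio compares counts as a share of the library (CPM) after scaling of the libraries by TMM, with a prior count of 2, and a gene was called when that ratio passed 1 or -1. All 10 genes passed the filter of 10 counts summed over both libraries. Of them 3 were called higher with TNF-α and 0 lower. In the background of 20771 genes that passed the same filter, 8.56% were called higher and 6.62% lower.

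The share of called genes depended strongly on counts. Of the 11426 genes with at least 10 but under 1000 counts, 13.4% were called higher and 10.4% lower, and 4 of the genes described here fell in that range, with 3 called higher and 0 lower. Of the 9345 genes with at least 1000 counts, 2.65% were called higher and 2.02% lower, and the other 6 genes, of which 0 were called in either direction, fell there. The median log2 ratio of the 10 genes was 0.21, beside 0.0038 for all genes tested, and 6 of them lay above 0 and 4 below. For the 6 genes with at least 1000 counts the median was -0.06.

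**Figure D1:**
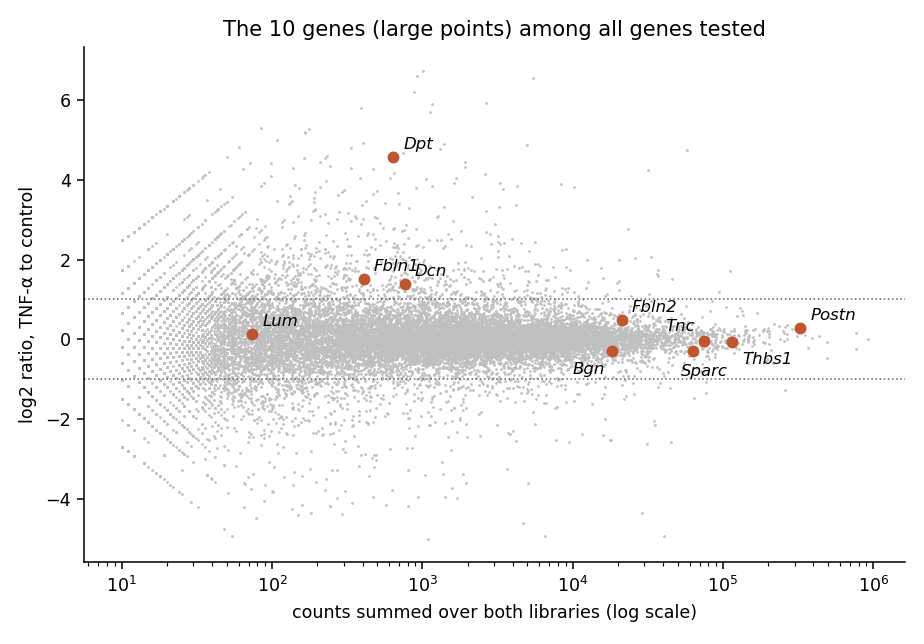
Each grey point is 1 of the 20771 genes tested, with counts summed over both libraries on a log x axis and the log2 ratio (TNF-α over control) on the y axis. Dotted lines mark 2-fold. Dpt, Fbln1 and Dcn lie above the upper line at moderate counts, Lum lies near 0 at 74 counts, and the 6 abundant genes lie between -0.30 and 0.48.

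Promoter sequences are shown for Dpt and Fbln1, as genes called higher, and for Postn and Tnc, as abundant genes that were not called. RefSeq windows on GRCm38.p6 were given for 7 of the 10 genes, and Dcn, Lum and Thbs1 had none. Each line holds the 250 bases before the annotated start, 5′ to 3′ on the strand of the gene, using the annotated start nearest to the deposited 5′ end. The windows of Sparc, Bgn and Fbln2 are not printed, although Sparc was above Tnc per kilobase. The RefSeq start of Sparc lies 3103 bases inside the deposited gene, and its window held no match. Capitals mark a TATA box (TATAAA) or a GC box (GGGCGG), searched on both strands. The Dpt window is chr1:164796413-164796662 (plus strand), that of Fbln1 is chr15:85205699-85205948 (plus strand), that of Postn is chr3:54360857-54361106 (plus strand) and that of Tnc is chr4:64047016-64047265 (minus strand).
Dpt: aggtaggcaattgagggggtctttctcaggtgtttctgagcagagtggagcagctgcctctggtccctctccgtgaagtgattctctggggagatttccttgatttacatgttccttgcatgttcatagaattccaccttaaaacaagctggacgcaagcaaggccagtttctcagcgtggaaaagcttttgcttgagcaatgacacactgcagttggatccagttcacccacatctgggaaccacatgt
Fbln1: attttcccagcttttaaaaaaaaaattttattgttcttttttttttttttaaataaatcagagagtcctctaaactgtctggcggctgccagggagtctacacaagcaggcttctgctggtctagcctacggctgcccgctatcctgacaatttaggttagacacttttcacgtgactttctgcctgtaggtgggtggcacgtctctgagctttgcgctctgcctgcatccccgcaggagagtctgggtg
Postn: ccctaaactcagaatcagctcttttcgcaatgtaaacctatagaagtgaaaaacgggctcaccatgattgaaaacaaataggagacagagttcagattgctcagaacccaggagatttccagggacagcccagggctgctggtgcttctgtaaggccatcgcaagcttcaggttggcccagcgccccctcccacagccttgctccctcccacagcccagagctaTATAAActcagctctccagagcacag
Tnc: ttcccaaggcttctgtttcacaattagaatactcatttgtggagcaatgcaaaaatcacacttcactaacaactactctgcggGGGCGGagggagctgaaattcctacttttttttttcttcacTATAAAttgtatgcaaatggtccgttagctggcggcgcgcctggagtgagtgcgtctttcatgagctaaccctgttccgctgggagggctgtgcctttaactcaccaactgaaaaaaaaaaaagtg

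Among these upstream windows, that of Postn held TATAAA starting 26 bases before the start site, and that of Tnc held it 126 bases before. The Tnc window also held GGGCGG, 167 bases before the start. The Dpt window held no match before the start, and its TATAAA match began 12 bases after the start site. The Fbln1 window printed above held no match, while a window from a second RefSeq start of Fbln1, 59 bases further along, matched the GC box on both sides of that start. The letters GGANTTTCC, taken for NF-κB, and TGANTCA, taken for AP-1, occurred on neither strand in any of the 10 windows listed for the 7 genes. Of all 32851 RefSeq windows, which reach from 250 bases before to 50 bases after the start, 1.25% held the NF-κB letters, 7.81% the AP-1 letters, 13.6% the TATA box and 35.7% the GC box. The absence of a match says only that these letters are not in these windows.

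The levels of the 10 genes formed a wide range. Levels are given as CPM divided by the summed exon length in kilobases (RPKM), the scale on which genes can be compared, with 95% Poisson intervals that cover counting error only. Postn was the most abundant, at 342 RPKM (341 to 344) in the control and 419 RPKM (417 to 421) with TNF-α, which placed it at ranks 128 and 105 of the genes tested. Thbs1 followed at 199 and 189 RPKM, Sparc at 188 and 154 RPKM, and Tnc at 100.3 and 97.7 RPKM, in the control and TNF-α libraries, respectively. Bgn had 33.9 and 27.6 RPKM and Fbln2 28.2 and 39.3 RPKM, so that these exchanged places between the libraries.

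A gap separated these 6 genes from the rest. Dcn had 1.98 RPKM in the control, Fbln1 0.467 RPKM, Lum 0.346 RPKM and Dpt 0.26 RPKM. The counting intervals of Lum (0.237 to 0.488) and Dpt (0.159 to 0.402) overlapped in the control library, so their order there is not resolved. With TNF-α, Dpt moved from the lowest of the 10 genes to place 7, at 6.76 RPKM (6.24 to 7.31), above Dcn at 5.23 RPKM (4.82 to 5.68). Fbln1 stood at 1.36 RPKM and Lum at 0.379 RPKM in that library.

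The order of some neighbours depended on the gene length used. The deposited length merges the exons of all isoforms, which makes 6099 bases for Bgn and 8702 for Postn, whereas their longest principal transcripts in GENCODE M21 have 2419 and 3189 bases. With principal transcripts, a choice made after seeing the data, Sparc (310 RPKM in the control) passed Thbs1 (207 RPKM) in both libraries. Bgn then also passed Fbln2 in the TNF-α library, at 69.6 and 52.3 RPKM. All other places were kept.

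**Figure D2:**
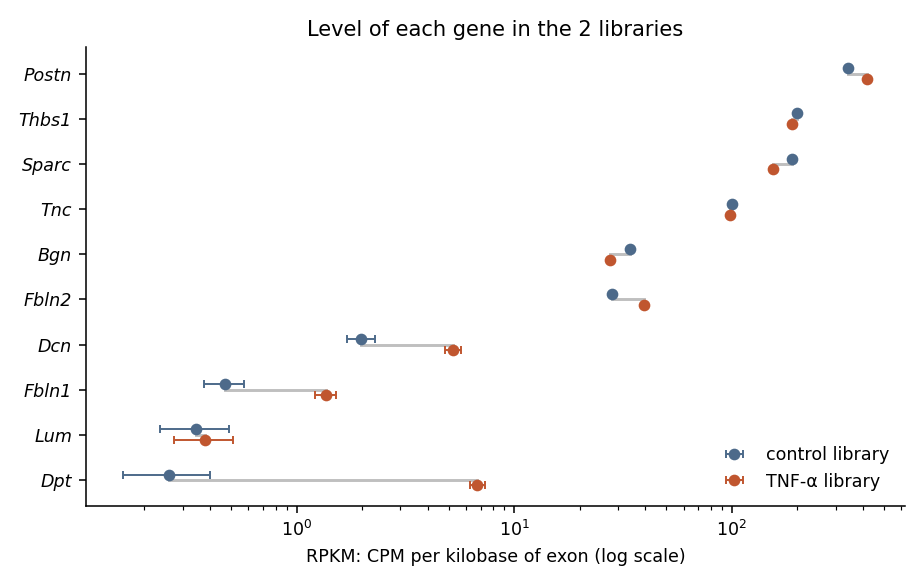
The level of each of the 10 genes in CPM per kilobase of exon (RPKM), on a log axis, in the control library (blue) and the TNF-α library (orange), with 95% Poisson intervals for counting error. The 6 abundant genes lie at 27.6 RPKM or above in both libraries, and Dpt covers the longest distance, from 0.26 to 6.76 RPKM.

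Together the 10 genes took 0.609% of all counts in the control library and 0.657% with TNF-α. Postn alone gave 49.0% and 55.4% of their counts. Their summed level was 6075 CPM in the control and 6584 CPM with TNF-α, a log2 ratio of 0.12. Dpt, Fbln1 and Dcn together gave little of that sum.

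Among the small leucine-rich proteoglycans, Dcn and Bgn, which are relatives carrying chondroitin or dermatan sulfate chains, differed in opposite directions. Dcn (chromosome 10, 97479500 to 97518162, GRCm38) had 184 counts in the control and 582 with TNF-α. That is a log2 ratio of 1.39 with a 95% Clopper-Pearson interval for counting error of 1.16 to 1.65. It lay at percentile 94.7 of all genes tested, inside their range from the 5th to the 95th percentile (-1.20 to 1.42). The intervals given here treat each count as independent, and they are too narrow if both reads of a pair were counted. Bgn (chromosome X, 73483602 to 73495933) had 9220 counts in the control and 8990 with TNF-α in the deeper library, a log2 ratio of -0.30 (-0.34 to -0.25). That ratio was not called and lay at percentile 16.4 of the genes with at least 1000 counts, inside their range from the 5th to the 95th percentile. Bgn exceeded Dcn in level per kilobase in both libraries, by 17.1-fold in the control and by 5.28-fold with TNF-α. On principal transcript lengths these ratios were 36.4 and 11.2.

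Lum, which encodes the keratan sulfate proteoglycan lumican, lies 47.3 kb from Dcn on the same strand (chromosome 10, 97565501 to 97572703). It had 32 counts in the control and 42 with TNF-α. Its log2 ratio was 0.13 (-0.57 to 0.84), so the interval ended below the 2-fold threshold and below the Dcn interval. With counts divided by 2, as for read pairs counted as separate reads, it ran from -0.88 to 1.17 and overlapped that of Dcn (1.06 to 1.76). No other gene within 250 kb of this pair reached 10 counts. Kera and Epyc, the further leucine-rich proteoglycan genes known from this cluster, had 0 counts in both libraries. If each count is independent, a count of 0 allows up to 3 counts, which is 0.0673 CPM in the control and 0.0562 CPM with TNF-α.

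Dpt showed the largest difference of the group. The gene (chromosome 1, 164796644 to 164824266) had 20 counts in the control library and 622 with TNF-α, or 0.449 and 11.7 CPM. The log2 ratio was 4.58 (4.06 to 5.42), at percentile 99.9 of all genes tested, and 24 genes, Dpt included, had a ratio at least as high. With Dpt below Dcn in the control by 7.61-fold per kilobase and above it with TNF-α, the order of these binding partners differed between the libraries on the summed exon length. On principal transcript lengths Dpt was below Dcn by 9.02-fold in the control. With TNF-α the intervals on those lengths overlapped (6.24 to 7.31 RPKM for Dpt and 5.71 to 6.73 RPKM for Dcn), so the order there is not resolved.

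The fibulins are calcium-binding glycoproteins that join elastic fibres and basement membranes. Fbln1 (chromosome 15, 85205949 to 85286535) had 91 counts in the control and 317 with TNF-α, a log2 ratio of 1.52 (1.20 to 1.89). That ratio lay at percentile 95.4 of all genes tested, just past their 95th percentile of 1.42. Fbln2 (chromosome 6, 91212455 to 91272540) was at 7997 counts in the control and 13355 with TNF-α, a log2 ratio of 0.48 (0.44 to 0.52). Both were thus higher with TNF-α, and only Fbln1 passed 2-fold. Among the genes with at least 1000 counts, the ratio of Fbln2 lay at percentile 90.9. Fbln2 remained the major fibulin of the pair, with a level per kilobase 60.3 times that of Fbln1 in the control and 28.9 times with TNF-α.

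Postn encodes periostin, which binds collagen, tenascin C and integrins. It had 132783 counts in the control and 194594 with TNF-α, a log2 ratio of 0.29 (0.28 to 0.30). Its interval is narrow because of its counts, but it leaves out the spread between cultures, and the ratio lay at percentile 83.0 of the genes with at least 1000 counts. Sparc, whose product binds collagen and calcium, had 31781 and 31114 counts, a log2 ratio of -0.29 (-0.31 to -0.27), at percentile 16.7 of the same genes. Postn and Sparc thus differed by about the same amount in opposite directions, and both lay inside the range from the 5th to the 95th percentile, which was -0.61 to 0.71.

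Tnc and Thbs1, which encode tenascin C and thrombospondin 1, were nearly equal in both libraries. Tnc had 34754 counts in the control and 40526 with TNF-α, a log2 ratio of -0.04 (-0.06 to -0.02). Thbs1 had 53893 and 61160 counts, a log2 ratio of -0.08 (-0.09 to -0.06). Both ratios stayed negative under the 9 alternatives run, the other scalings included. Tnc (chromosome 4, 63959785 to 64047015) shares 176 exon bases with 8030451A03Rik on the opposite strand, which had 1093 and 1346 counts. Thbs1 (chromosome 2, 118111876 to 118127133) shares 208 exon bases with Gm29233 on the opposite strand, which had 1412 and 1570 counts. Whether counting used the strand is not given in the sources used here, so reads of these overlaps cannot be told apart, and they are few beside the counts of Tnc and Thbs1.

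**Figure D3:**
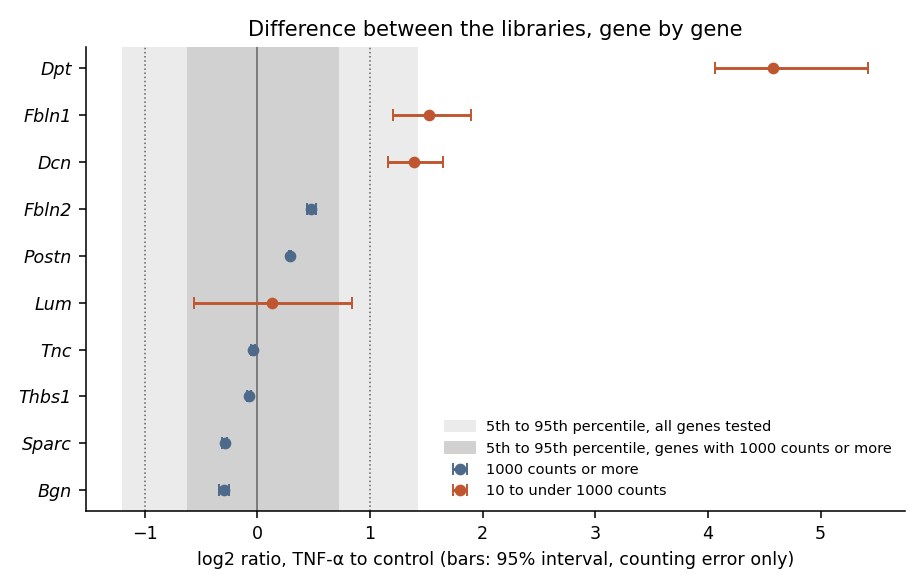
Log2 ratio (TNF-α over control) for each gene, with 95% Clopper-Pearson intervals that cover counting error only. The bands give the 5th to 95th percentile of all 20771 genes (-1.20 to 1.42) and of the 9345 genes with at least 1000 counts (-0.61 to 0.71), dotted lines mark 2-fold, and Dpt alone lies far outside both bands.

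Relatives of these genes were described by lists fixed by function, not by how they moved, although earlier results on the libraries were known. Calls in each list, cell type markers included, stand beside 8.56% called higher and 6.62% lower over all genes tested. Among genes with at least 10 but under 1000 counts, those shares were 13.4% and 10.4%. Of 14 other small leucine-rich proteoglycans, 12 reached 10 counts. Their median log2 ratio was 0.19, and 2 were called higher and 1 lower. Podn, which encodes podocan, was the lower gene, with 228 counts in the control and 118 with TNF-α, a log2 ratio of -1.20 (-1.54 to -0.88). The higher genes, named after their values were seen, were Optc (24 and 81 counts) and Podnl1 (4 and 32 counts). Prelp, also named afterwards, was the most counted of the list, with 2431 and 3298 counts and a log2 ratio of 0.18.

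The relatives of Thbs1, Tnc and Postn had log2 ratios from -4.19 to 1.23. Of these 8 genes, 2 were called higher and 2 lower, and the median was -0.41. Thbs4, which encodes thrombospondin 4, had 1444 counts in the control and 128 with TNF-α, a log2 ratio of -3.73 (-4.03 to -3.49). Tnxb, which encodes tenascin X, had 229 counts in the control and 13 with TNF-α, a log2 ratio of -4.19 (-5.33 to -3.60). In the opposite direction, Thbs2 had 761 and 1899 counts, a log2 ratio of 1.06 (0.94 to 1.18). Tgfbi, whose product is a relative of periostin, had 159 and 450 counts, a log2 ratio of 1.23 (0.98 to 1.51). The thrombospondin and tenascin families were therefore not uniform between the libraries, with Thbs1 and Tnc near 0 and their relatives on both sides.

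The other fibulins and elastic fibre genes had calls in both directions, with 3 of 16 called higher, 3 lower and a median of 0.0021. Over all genes tested, 8.56% were called higher and 6.62% lower. Eln, which encodes elastin, had 1374 counts in the control and 413 with TNF-α, a log2 ratio of -1.99 (-2.16 to -1.83). Fbln5, whose product is needed for elastic fibre assembly, had 695 and 289 counts, a log2 ratio of -1.52 (-1.73 to -1.33). The difference was thus opposite in sign to those of Fbln1 and Fbln2. Fbn2, which encodes fibrillin 2, had 984 and 3838 counts, a log2 ratio of 1.70 (1.60 to 1.81), and Emilin1 had 450 and 1260 counts, a log2 ratio of 1.22 (1.07 to 1.38). The remaining called genes, named after their values were seen, were Efemp1, higher with 16 and 82 counts, and Ltbp1, lower with 4594 and 2558 counts.

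The relatives of Sparc were called in neither direction, 0 of 7, with a median of -0.42, and those with at least 200 counts ran from -0.87 for Sparcl1 to -0.17 for Fstl1. Of the CCN proteins and osteopontin, which are further matricellular proteins, 6 of 7 were measured, and 2 were called higher and 1 lower around a median of -0.22. Wisp1 was higher, with 224 and 570 counts and a log2 ratio of 1.08 (0.86 to 1.32). The others, named after their values were seen, rested on few reads, with 4 and 22 counts for Nov and 54 and 30 for Wisp2. The 3 measured genes not called, also named afterwards, were the most counted of the list. Their log2 ratios were -0.16 for Ctgf, -0.29 for Cyr61 and -0.30 for Spp1. Of 19 larger and basement membrane proteoglycans, 17 were measured, the median was 0.12, and 1 was called in each direction. These were Ncan (0 and 12 counts) and Acan (54 and 7 counts), named after their values were seen. Those with at least 200 counts ran from a log2 ratio of -0.39 for Gpc1 to 0.47 for Sdc3, which encode a glypican and a syndecan.

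The enzymes that build chondroitin and dermatan sulfate chains, as carried by decorin and biglycan, included 0 called higher and 2 lower among 20 measured, with a median of -0.03. Ust, which sulfates uronic acid residues, had 916 counts in the control and 489 with TNF-α, a log2 ratio of -1.16 (-1.33 to -1.01). Chsy3, a chondroitin synthase, had 703 and 408 counts, a log2 ratio of -1.04 (-1.22 to -0.87). Of 16 receptors of these matrix proteins, 2 were called higher and 1 lower, with a median of 0.09. Cd47, which encodes a thrombospondin receptor, had 345 and 1191 counts, a log2 ratio of 1.52 (1.35 to 1.70), while its ligand gene Thbs1 was at -0.08. Itgb6 had 182 and 453 counts, a log2 ratio of 1.05 (0.80 to 1.31), and Itga8 had 4555 and 2071 counts, a log2 ratio of -1.40 (-1.47 to -1.32). The products of both pair with other integrin chains that bind matrix ligands.

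**Figure D4:**
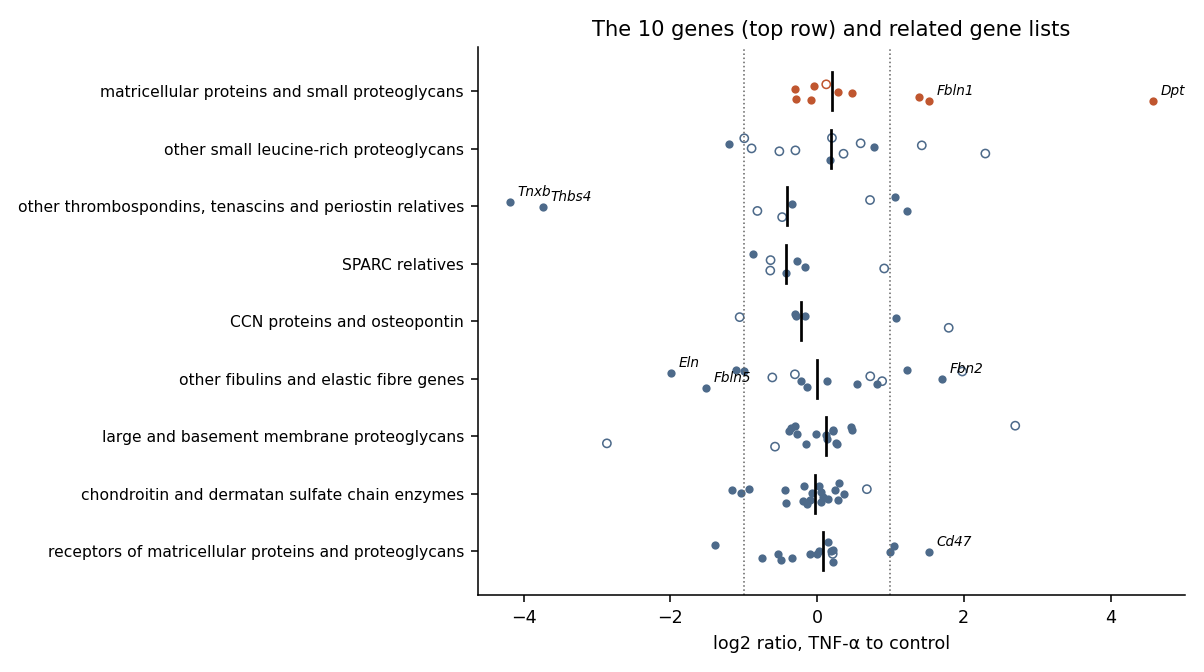
Log2 ratio (TNF-α over control) for the 10 genes (orange, top row) and for 8 lists of related genes (blue), with filled points for genes of at least 200 counts, open points for fewer, and a black bar at each median. Dotted lines mark 2-fold, and the medians lie between -0.42 and 0.21 while single genes such as Dpt, Tnxb and Thbs4 lie far outside.

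Markers of the cells that the cultures could hold were read beside these differences. The basal markers Krt14, Krt5 and Trp63 had 229766, 109438 and 9329 counts in the control library. The luminal markers Krt8, Krt19 and Epcam had 54056, 44243 and 34617 counts there. In the paper, flow cytometry of control colonies grown from basal cells found mostly luminal cells, so the label names the sorted cells and not all cells sequenced. For cultures with TNF-α, the paper reports by flow cytometry a larger proportion of basal cells and more Procr-positive basal cells. Whether the 2 sequenced cultures differed in this way was not tested. Since Dpt, Dcn and Lum are typical of fibroblasts, the fibroblast list was examined in full. Of its 18 genes 17 reached 10 counts, and 3 were called higher and 2 lower around a median of 0.07. Its summed level was 2259 CPM in the control and 1583 CPM with TNF-α. Most of that difference lay in the single gene Col6a3, at 1010 and 362 CPM (44994 and 19311 counts, log2 ratio -1.48). Cd34 (138 and 473 counts, log2 ratio 1.51) and Prrx1 (884 and 2532 counts, log2 ratio 1.26) were higher. Twist2, named after its values were seen, was also higher with 10 and 32 counts. Clec3b, the other gene called lower, had 9 and 4 counts. Pdgfrb (789 and 494 counts, log2 ratio -0.93) and Col3a1 (5628 and 4250 counts, log2 ratio -0.66) were lower without passing 2-fold. Thy1 (1273 and 2602 counts, log2 ratio 0.77) and Mfap5 (21 and 43 counts, log2 ratio 0.73) were higher without passing it. Pdgfra had 2133 and 2519 counts, a log2 ratio of -0.02, and Tcf21 was at 0 in both libraries. Of the 17 genes measured, 9 had a log2 ratio above 0.

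The summed level of the pericyte and smooth muscle list was 268 CPM in the control and 218 CPM with TNF-α, that of the endothelial list 32.96 and 21.01 CPM, and that of the leukocyte and macrophage list 8.91 and 6.99 CPM, with 0 genes called higher and 2, 1 and 1 called lower in these lists. Of their genes with at least 200 counts, Notch3 and Cspg4 were the ends of the pericyte list at -0.45 and 0.22, Erg and Cdh5 those of the endothelial list at -0.93 and 0.22, and Lyz2 was at -0.32. Erg alone held 22.7 CPM of the endothelial sum in the control and 11.9 CPM with TNF-α, so that difference lay mostly in 1 gene. In bulk samples, more cells of a type and more RNA per cell cannot be told apart. The part of these cell types in the values of Dpt, Dcn and Fbln1 was not tested.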

How the data were processed

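The authors deposited raw read counts per gene, with exon coordinates and summed exon length, in the layout of featureCounts and without normalization. The labels name GRCm38 (mm10), and the aligner, counting tool and filters are not given in the sources used here. Gene coordinates equalled those of GENCODE M21 for 8 of the 10 genes. Library sizes were scaled with edgeR 4.0.16 (R 4.3.3) by TMM on genes with at least 10 counts over both libraries, and log2 ratios of CPM had a prior count of 2. With 1 library per group no test was run: a gene was called when past 2-fold, and the 95% Clopper-Pearson and Poisson intervals cover counting error only, since PCR reads are not independent molecules. Low even counts were in excess (2172 genes with 2 counts and 618 with 1 in the control), as when both ends of a pair are counted, so halved counts were an alternative. In that case the intervals from full counts are too narrow. Halved counts gave 3.80 to 5.77 for Dpt, 1.06 to 2.05 for Fbln1 and 1.06 to 1.76 for Dcn. The other alternatives were total counts, DESeq2 1.42.0 size factors, upper quartile scaling, other filters, prior counts of 0.5 and 5, folds of 1.5 and 4, and thinning of the TNF-α library to the control depth. The scaling and ratio steps were run on simulated Poisson counts with planted 4-fold changes. That simulation held no spread between cultures, so it checks the code and not the differences described here.

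The members and lists were chosen with earlier results of these data known. Besides the 10 genes, the text names, from each list, up to 4 genes past 2-fold with at least 200 counts, or its highest and lowest gene where none passed, and genes within 250 kb of a member. Genes named otherwise are marked, apart from cell type markers. RefSeq promoter windows were on GRCm38.p6. Intervals and figures were made in Python 3.11.15 with scipy 1.17.1, pandas 2.3.3, matplotlib 3.10.9 and numpy 2.4.6.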

Additional observations from a re-analysis of the deposited data

How the results depend on the processing

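No paired analysis was possible because each group had 1 library, which also leaves nothing to omit. For the 10 genes, the numbers called, 3 higher and 0 lower, were the same under the 9 alternatives of scaling, filter, prior count and depth, and at least 1 CPM in a library left 9 genes, without Lum. With 4-fold as the threshold, 1 gene, Dpt, was called higher, and with 1.5-fold the number was 3. The median of the 10 genes moved by at most 0.1, and every gene's log2 ratio stayed inside its interval for counting error. Over all genes, 2695 were higher and 2981 lower with no filter, 836 and 659 with at least 1 CPM, and 248 and 189 with at least 1000 counts, because other genes were tested. A threshold of 1.5-fold gave 3210 and 2846, and 4-fold gave 540 and 342. Of the lists, the medians of the small leucine-rich proteoglycans, the thrombospondin relatives and the elastic fibre genes moved by more than 0.1, to -0.06, -0.58 and -0.14 with at least 1 CPM, where fewer genes were tested, and that of the thrombospondin relatives was -0.29 after thinning. Depth limits Lum most, with 74 counts over both libraries.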

Other observations

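Around the 10 genes, 48 other genes within 250 kb reached 10 counts, of which 10 were called higher with TNF-α and 2 lower. Over all genes tested 8.56% were called higher and 6.62% lower, and among those with 10 to under 1000 counts 13.4% and 10.4%. Beside Thbs1, Gpr176, which encodes a G protein-coupled receptor and lies 150 kb away, had 194 counts in the control and 785 with TNF-α, a log2 ratio of 1.75, while Thbs1 itself was at -0.08. Beside Sparc, Atox1, a copper chaperone gene 23.5 kb away, had 319 and 765 counts, a log2 ratio of 0.998, just under the threshold. Beside Tnc, Tnfsf15, which encodes a ligand of the TNF superfamily 215 kb away, had 18 and 50 counts, a log2 ratio of 1.14. Of the 7 measured genes beside Fbln1, 3 were called higher on few reads, namely Gm10923 (6 and 34 counts), Ribc2 (2 and 8 counts) and Smc1b (14 and 38 counts), with log2 ratios of 1.95, 1.15 and 1.08. The other 4, namely 5031439G07Rik, Fam118a, Atxn10 and Wnt7b, ran from -0.06 to 0.45. Dpt had no neighbour with more than 24 counts within that distance.

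Beside 8.56% called higher and 6.62% lower over all genes tested, 1 of 13 luminal markers was called higher and 3 lower, with a median of -0.77. Of 13 basal markers 0 were called higher and 2 lower, with a median of -0.20. Those of the hormone-sensing luminal cells Pgr, Esr1 and Prlr were lower with TNF-α, with log2 ratios of -1.54, -1.48 and -1.15, and Cd14 was higher at 1.19. Lower values were not limited to these 3, since Kit, Krt19 and Elf5 were at -0.95, -0.84 and -0.63. Only 2 of the 13 luminal markers had a log2 ratio above 0. The basal markers Lgr5 and Oxtr were lower, at -1.20 and -1.19, whereas Krt5 and Krt14 had log2 ratios of 0.16 and -0.08. The contractile genes Cnn1, Myh11 and Tagln were at -0.74, -0.52 and -0.31. Of the 13 basal markers 5 had a log2 ratio above 0, and the highest was Procr (86 and 140 counts) at 0.44.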
